A study of Homo sapiens with 12 samples.

Results

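The short arm of chromosome 1 next to its centromere, bands 1p13 to 1p11, held a list of 33 neighbouring genes that runs from TRIM33 to NOTCH2 (chr1:114392790-120100779, 5.71 Mb, GRCh38). The members were chosen by symbol out of 63086 genes in the table because earlier results of these data showed them to be lower in one TIMP1 knockout line than in the other, so their differences between lines are given here as a description, without p-values. Of the 33 members, 18 had a mean of 10 or more normalised counts across libraries and could be tested, and 15 did not reach it.

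RNA was sequenced from MIA PaCa-2, a human pancreatic carcinoma line, in 4 sublines with 3 libraries each. WT was the parental line, and CRISPR Control was a line with a silent point mutation. TIMP1 KO 1 and TIMP1 KO 2 carried edits of exon 4 of TIMP1, which encodes the metalloproteinase inhibitor TIMP-1, made with different guide RNAs, and each knockout line was a single clone. All lines grew in the same medium to 70% confluency and received no further treatment, and genomic DNA was not measured. Libraries held 26908701 to 36093563 reads in genes. KO 2 libraries had 25160 to 25921 genes above 0, and those of KO 1 had 23048 to 23819. The epithelial and mesenchymal genes KRT8, KRT18, KRT19, EPCAM and VIM were expressed in every line. Of these 5, 4 were called lower and none higher in CRISPR Control than in WT, and 4 were called lower and 1 higher in KO 2 than in KO 1 (limma). KRT8 and KRT18 had log2 differences of -1.71 and -1.69 in the first comparison and of -0.49 and -0.67 in the second, whereas KRT19 had -1.79 and 1.09, and their part in the level of the block was not tested. The 7 markers of leukocytes, endothelium and fibroblasts summed to 21.0 to 23.8 normalised counts per WT library, to 64.0 to 96.7 per CRISPR Control library, to 28.1 to 44.2 for KO 1 and to 50.5 to 81.5 for KO 2, mostly from PDGFRB, while CD3E and DCN were at 0 in WT and KO 1. This sum was therefore higher in the 2 lines in which the block was low, and its part in the results was not tested. TIMP1 itself averaged 3553 ± 274 normalised counts for WT, 2690.4 ± 357 for CRISPR Control, 1599.6 ± 32.8 for KO 1 and 1161 ± 28.8 for KO 2 (± SD, n = 3), and a count over the whole gene does not show whether exon 4 was edited.

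The block holds genes of unrelated function that lie side by side. Its signalling members include NRAS, a small GTPase that passes growth factor signals to the RAF-MEK-ERK kinases, NOTCH2, a receptor that is cleaved on contact with a ligand-bearing cell, VANGL1, a membrane protein of planar cell polarity, and CD58, the adhesion ligand of CD2 on T cells and NK cells. Others work in RNA and protein synthesis, among them the spliceosome subunit BCAS2, the transcription termination factor TTF2, the ribosome assembly factor WDR3 and WARS2, which charges tryptophan tRNA in mitochondria. Genes that lie near each other have their own promoters as a rule, although pairs that start back to back can share one.

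Upstream sequences are shown for NRAS, VANGL1 and TTF2, all lower in KO 2 than KO 1, and for the back-to-back pair GDAP2 and WDR3. Each holds the bases directly before the RefSeq start site, limited to those outside any annotated gene, in GRCh38.p14, 5′ to 3′ on the strand of the gene, with matches to a GC box (GGGCGG) or a CCAAT box (CCAAT), on either strand, in capitals. NRAS (minus strand) is given at chr1:114716772-114716912, VANGL1 (plus strand) at chr1:115641720-115641969 and TTF2 (plus strand) at chr1:117060076-117060325. The entry for WDR3 (plus strand, chr1:117929622-117929719) is the whole stretch of 98 bases between the start of GDAP2, which is read to the left, and that of WDR3, which is read to the right.
NRAS: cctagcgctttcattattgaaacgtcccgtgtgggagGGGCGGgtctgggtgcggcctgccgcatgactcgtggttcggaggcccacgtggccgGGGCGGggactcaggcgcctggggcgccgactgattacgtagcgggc
VANGL1: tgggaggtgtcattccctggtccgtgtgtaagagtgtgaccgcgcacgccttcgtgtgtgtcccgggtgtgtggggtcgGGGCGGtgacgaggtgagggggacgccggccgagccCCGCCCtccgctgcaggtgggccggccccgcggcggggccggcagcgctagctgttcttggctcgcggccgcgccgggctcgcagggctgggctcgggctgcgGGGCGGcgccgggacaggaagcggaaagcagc
TTF2: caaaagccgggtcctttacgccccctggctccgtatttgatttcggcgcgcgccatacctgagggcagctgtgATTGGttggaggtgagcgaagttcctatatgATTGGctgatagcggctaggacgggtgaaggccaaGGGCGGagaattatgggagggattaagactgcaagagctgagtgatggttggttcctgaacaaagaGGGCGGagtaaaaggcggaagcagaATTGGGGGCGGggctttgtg
GDAP2-WDR3: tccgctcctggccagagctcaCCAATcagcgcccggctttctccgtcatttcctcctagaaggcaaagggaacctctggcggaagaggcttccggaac
The NRAS stretch held 2 GC boxes, that of VANGL1 held 3 GC boxes, that of TTF2 held 3 GC boxes and 3 CCAAT boxes, of which 1 pair touches, and the stretch between GDAP2 and WDR3 held 1 CCAAT box. RefSeq promoters were matched for 29 of 33 members (not IGSF3, TRIM45, MAN1A2 and TBX15). In the 250 bases before the start, a GC box was present in 16 of these 29 (55.2%) and in 42.6% of all 35116 promoters in the table, a CCAAT box in 11 (37.9%) and in 32% of all, and a TATA box (TATAAA, either strand) in 4 (13.8%) and in 10.7% of all. Of the 14 members among them that were measured, 12 (85.7%) had a GC box, 5 (35.7%) a CCAAT box and 0 a TATA box. Each member entered with a single promoter, whereas the share of all promoters counts every entry. The 14 had also passed the minimum count, and no share was computed for all genes that did.

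Between the knockout lines the block was lower in KO 2. Of 18 members measured, 16 had a log2 difference below 0, as did 51.5% of all genes, 13 were called lower and none was called higher (limma, adjusted p under 0.05 over 15987 genes), against 20.1% of all genes called lower and 18.1% called higher, or 38.2% in either direction. Because this contrast chose the members, the shares are given side by side only. The median log2 difference of the members was -0.52, and that of all genes was -0.01. In 15 members all 3 KO 2 libraries lay below all 3 KO 1 libraries, as they did in 28% of all genes tested. In 4 members, NRAS, IGSF3, TTF2 and WDR3, they lay below the other 9 libraries too, as they did in 13.8% of all genes tested.

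**Figure D1:**
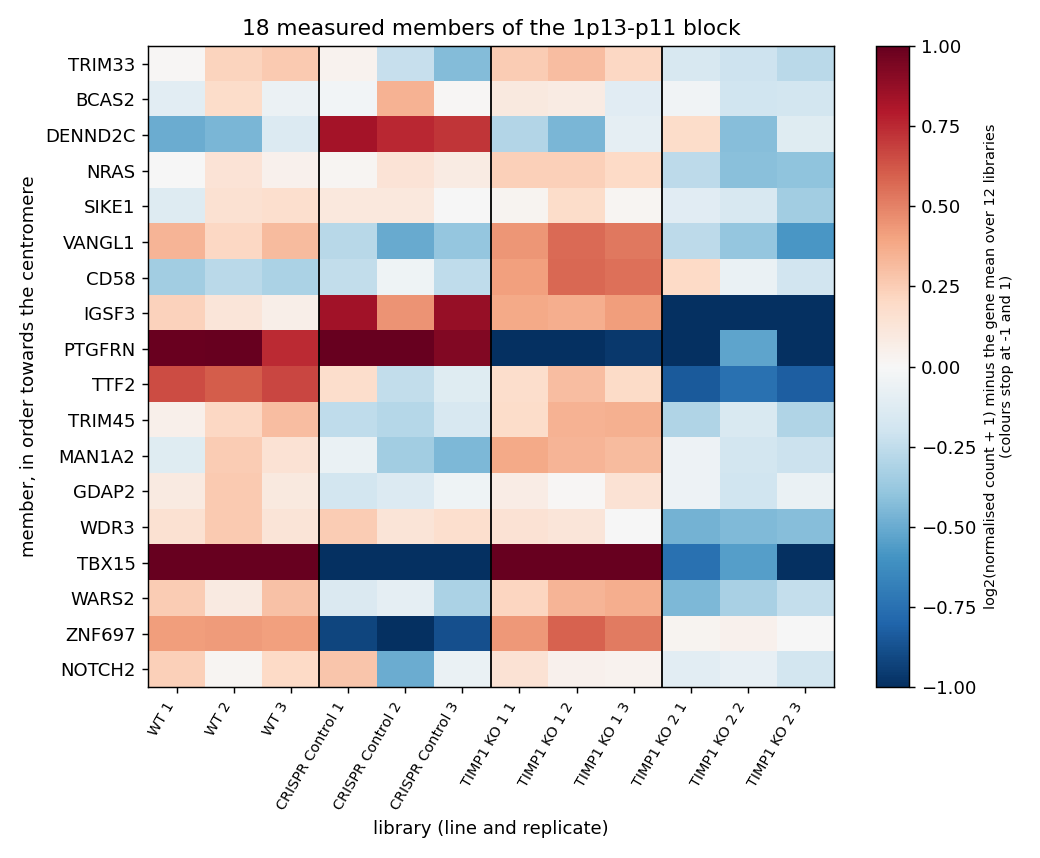
Each of the 18 members measured is a row, from TRIM33 to NOTCH2 along the chromosome, and each of the 12 libraries a column. Colour is the log2 normalised count (plus 1) minus the mean of that gene over the libraries, cut at -1 and 1. KO 2 is blue for most members and KO 1 red, and PTGFRN is low in both knockout lines. CRISPR Control is red for DENND2C and IGSF3, among others. It lies below WT for the 9 members called lower, though not blue in each library.

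NRAS had the highest level per kilobase of its reference transcript in every line but KO 2, at 956 normalised counts per kb for WT, 968 for CRISPR Control and 1072 for KO 1, against 714 for KO 2, where NOTCH2 stood at 764. The WT libraries gave 3962, 4359 and 4083 normalised counts, those of CRISPR Control 4023, 4358 and 4188, those of KO 1 4669, 4689.8 and 4553 and those of KO 2 3301, 2963 and 3007. All KO 2 values lay below the 9 others, and WT and CRISPR Control overlapped. KO 2 held 66.6% of the KO 1 level, a log2 difference of -0.59 (SE 0.07), and differed from WT by -0.42 (SE 0.07).

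IGSF3, an immunoglobulin superfamily membrane protein, had the largest difference between the knockout lines after TBX15. It was measured at 887, 824 and 789.6 normalised counts for WT, 1357, 1034 and 1385 for CRISPR Control, 987, 976 and 1014 for KO 1 and 352, 283 and 328 for KO 2. The KO 2 libraries stood apart at the bottom and those of CRISPR Control at the top, without overlap between any of the 4 lines. KO 2 was lower than KO 1 by a log2 difference of -1.63 (SE 0.11), and CRISPR Control was higher than WT by 0.58 (SE 0.11).

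VANGL1 split the lines in pairs. Its normalised counts were 1499, 1366 and 1475 in WT and 1603, 1756 and 1703 in KO 1, but 976, 834 and 907 in CRISPR Control and 986, 903 and 791 in KO 2. The last 2 lines overlapped, and each lay below the other pair. KO 2 was at 52.9% of KO 1 (log2 difference -0.92, SE 0.09), and CRISPR Control differed from WT by -0.68 (SE 0.09).

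TBX15, a T-box transcription factor of mesenchymal development, showed the same pairs with the widest gap. Its normalised counts were 137, 149 and 167 in WT and 177, 187 and 199.6 in KO 1, against 26.8, 7.12 and 31.9 in CRISPR Control and 38.9, 44.7 and 24.2 in KO 2. KO 2 held 19.1% of the KO 1 level, with a log2 difference of -2.40 (SE 0.36), and the difference between CRISPR Control and WT was -2.96 (SE 0.36). ZNF697, a zinc finger gene, ran from 1247 to 1259 normalised counts for WT, 1266 to 1412 for KO 1, 934 to 969 for KO 2 and 451 to 511 for CRISPR Control, so that CRISPR Control was the lowest line (-1.36, SE 0.08, against WT) and KO 2 lay between (-0.49, SE 0.08, against KO 1).

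TTF2, which releases RNA polymerase II from DNA, was stepped over all lines. It had 1934, 1865 and 1949 normalised counts in WT, 1386, 1520.1 and 1405 in KO 1, 1387, 1034 and 1127 in CRISPR Control and 687, 731 and 693 in KO 2. WT was above and KO 2 below all other libraries, while KO 1 and CRISPR Control met at 1386 and 1387. KO 2 was at 49.0% of KO 1 (log2 difference -1.03, SE 0.09).

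**Figure D2:**
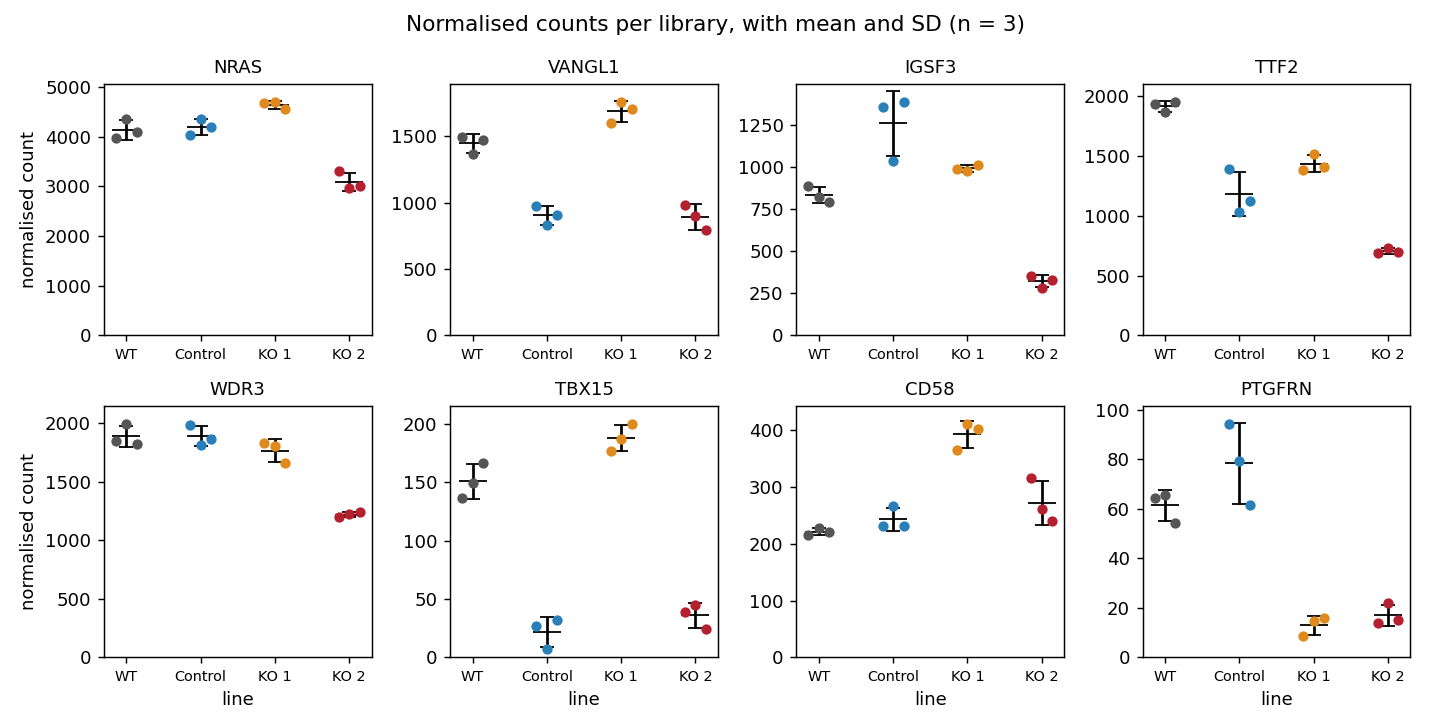
Normalised counts of 8 members in the 3 libraries of each line (points) with mean and SD (black bars), on linear axes from 0. NRAS, IGSF3, TTF2 and WDR3 have their lowest 3 values in KO 2, VANGL1 and TBX15 are low in CRISPR Control and KO 2, CD58 is highest in KO 1, and PTGFRN is low in both knockout lines.

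The back-to-back pair GDAP2 and WDR3, whose starts are 98 bases apart as printed above, differed in size. WDR3, a component of the small subunit processome, reached 1853, 1993 and 1824 normalised counts across the WT libraries, 1984, 1818 and 1868 across those of CRISPR Control, 1837, 1810.4 and 1659.9 across KO 1 and 1198, 1223 and 1240.0 across KO 2. KO 2 was the lowest line, at 69.0% of KO 1 (log2 difference -0.53, SE 0.07), and the other 3 overlapped. GDAP2 was at 542, 519 and 567 in KO 1 and 496, 447 and 490.3 in KO 2, a log2 difference of -0.18 (SE 0.09) that was not called, although the lines did not overlap. WDR3 overlaps SPAG17 on the opposite strand, and SPAG17 reached no more than 5 reads in any library.

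TRIM33, a ubiquitin ligase that acts on SMAD proteins, showed a log2 difference of -0.47 (SE 0.10), TRIM45, another ubiquitin ligase, of -0.55 (SE 0.12), MAN1A2, a Golgi mannosidase of N-glycan trimming, of -0.50 (SE 0.10) and WARS2 of -0.64 (SE 0.11). SIKE1, an inhibitor of the kinase IKBKE, had the smallest difference that was called, -0.28 (SE 0.10), with 852, 949 and 846 normalised counts in KO 1 and 773, 749.7 and 657 in KO 2. CD58 had 365, 411 and 403 normalised counts in KO 1 and 316, 262 and 240.1 in KO 2 (log2 difference -0.53, SE 0.12), but 216 to 228 in WT and 231 to 267 in CRISPR Control. KO 1 was thus the highest line for CD58, above all 9 other libraries, and KO 2 was above WT by 0.29 (SE 0.12), a call made in 10 of 21 settings of the fit.

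The members not called between the knockout lines were BCAS2, DENND2C, PTGFRN, GDAP2 and NOTCH2. BCAS2 had 843, 833 and 729.7 normalised counts in KO 1 and 769, 685 and 695 in KO 2 (log2 difference -0.16, SE 0.11), and KO 2 overlapped with KO 1 and WT but lay below CRISPR Control (773 to 1002). NOTCH2 had 10490.3, 9802 and 9752 in KO 1, 8827, 8977 and 8368 in KO 2, 11205, 9621 and 10897 in WT and 11502, 6758 and 9071 in CRISPR Control. KO 2 stayed under KO 1 and WT (log2 difference -0.20, SE 0.12, against KO 1), and the wide spread within CRISPR Control covered all other lines. NOTCH2 has near-identical NOTCH2NL copies on both sides of the centromere, between which reads may have been shared. The copy listed as NOTCH2NL, on the long arm, was called higher in KO 2 than in KO 1 (log2 difference 0.81). DENND2C, a DENN domain protein, stood high in CRISPR Control, at 74.7 to 81.2 normalised counts against 31.7 to 41.0 for WT, 32.6 to 42.4 for KO 1 and 33.3 to 51.4 for KO 2.

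PTGFRN, a membrane partner of tetraspanins, was low in both knockout lines. Its libraries gave 64.5, 65.5 and 54.3 normalised counts for WT, 94.1, 79.5 and 61.5 for CRISPR Control, 8.64, 14.6 and 15.9 for KO 1 and 14.1, 21.9 and 15.1 for KO 2. Both knockout lines lay below both controls, by a log2 difference against WT of -2.19 in KO 1 and -1.81 in KO 2 (SE 0.27 for each). These 2 differences share the WT libraries. Between the knockout lines the difference was not called (0.38, SE 0.27), and their libraries overlapped.

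The 15 members under the minimum included 5 with no read in any library, SYCP1, TSHB, TSPAN2, NHLH2 and CD2, and 10 with at least 1 read. They comprise genes of muscle, germ cells, pituitary, leukocytes and steroid tissues, such as the calsequestrin gene CASQ2 and the thyrotropin subunit gene TSHB. In the knockout lines none exceeded 4 reads, so that a difference was not detectable at this depth. SLC22A15, a solute carrier gene, was the exception among the lines, with 17.3, 14.2 and 9.89 normalised counts in CRISPR Control and no more than 2 reads per library in WT and KO 1. Its mean in CRISPR Control was at least 4.61-fold higher than in WT and at least 4.47-fold higher than in KO 1, taking 3 reads per library as the limit of a count of 0.

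Against WT, CRISPR Control had 9 members called lower and 2 higher, with 7 not called, where 26.3% of all genes were called lower and 27.2% higher (53.4% in all). The members' median log2 difference was -0.26. It was -0.33 without CRISPR Control replicate 1 and -0.16 without replicate 2, and the summed normalised counts of the 18 members were 27150.1, 21523 and 23791 in the 3 CRISPR Control libraries, against 27643 to 28417 in WT. KO 1 had 2 members called lower, PTGFRN and TTF2, and 1 higher, CD58 (17.5% and 18% of all genes, or 35.5% in all), with a median of 0.09, and the number called was 5 without WT replicate 2 and 6 without CRISPR Control replicate 1 or 2. KO 2 had 13 lower and 1 higher, CD58 (27.9% and 27.1% of all genes, or 55%), with a median of -0.41. The mean of both knockout lines against that of WT and CRISPR Control gave 6 lower and 4 higher (33% and 32.9% of all genes, or 65.9%), with a median of -0.04. Against CRISPR Control, KO 1 had 9 members called higher and 3 lower (31.7% and 31.3% of all genes, or 63%), and KO 2 had 8 lower and 2 higher (34.4% and 33.3%, or 67.7%). These comparisons share the WT or the CRISPR Control libraries.

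Of the 13 members called lower in KO 2 than in KO 1, 8 were also called lower in CRISPR Control than in WT, a comparison with no libraries in common. Among all 3210 genes called lower in KO 2 than in KO 1, 36.6% were also lower there and 21.7% higher. Both comparisons came from the same fit, which took a shared spread per gene from all 12 libraries. The members were also chosen with earlier results of these data known, so this overlap is given as a description. The 8 members were TRIM33, VANGL1, TTF2, TRIM45, MAN1A2, TBX15, WARS2 and ZNF697. Another 4, NRAS, SIKE1, CD58 and WDR3, were not called there, and IGSF3 was called higher. As a level of the whole block, the median deviation of the 18 members from their means was 0.17 ± 0.04 on the log2 scale for WT, -0.07 ± 0.06 for CRISPR Control, 0.24 ± 0.06 for KO 1 and -0.25 ± 0.04 for KO 2 (± SD, n = 3). WT and KO 1 overlapped in this level, with 0.12 to 0.21 and 0.20 to 0.31, and CRISPR Control (-0.12 to -0.0036) and KO 2 (-0.29 to -0.21) each stood apart.

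Genes that are no members but lie in or beside the block were tested next. Of 41 protein-coding genes in the interval, 8 were not on the list, and 4 of these were measured. All 4, beside 20.1% of all genes, were lower in KO 2 than in KO 1 (limma, adjusted p). Among them, FAM46C, a poly(A) polymerase gene, had a log2 difference of -1.04 (SE 0.09, adjusted p = 5.33e-08) and PHGDH, the first enzyme of serine synthesis, of -0.91 (SE 0.09, adjusted p = 2.71e-07). Both were also lower in CRISPR Control than in WT by limma, FAM46C with a log2 difference of -2.64 (adjusted p = 2.68e-14) and PHGDH of -0.87 (adjusted p = 1.99e-07).

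The lower level in KO 2 did not end at TRIM33. Of the 5 genes measured next to it towards the telomere, PHTF1 (-0.65, adjusted p = 2.61e-06), RSBN1 (-0.63, adjusted p = 7.41e-05), DCLRE1B (-0.72, adjusted p = 1.08e-05) and HIPK1 (-0.61, adjusted p = 7.55e-05) were lower in KO 2 than in KO 1 by limma, and AP4B1 was not called (-0.18, adjusted p = 0.219). Over the 10 Mb on that side, 40 of 61 genes measured were called lower and 2 higher, with a median of -0.41. Of all genes, 20.1% were called lower and 18.1% higher in this comparison. In CRISPR Control against WT, 50 of these 61 were called lower and 1 higher (26.3% and 27.2% of all genes), with a median of -0.53. The whole short arm on the telomeric side of the block had 176 of 742 genes lower in KO 2 than in KO 1. Another 144 were higher, and the median was -0.03.

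Towards the centromere the picture was mixed. SEC22B, a vesicle fusion protein, did not pass (0.16, adjusted p = 0.0743), nor did NBPF8 (-0.28, adjusted p = 0.12) and NBPF26 (0.11, adjusted p = 0.58), whereas FAM72B (-1.18, adjusted p = 2.15e-08) and SRGAP2C (-0.31, adjusted p = 0.0039) were lower in KO 2 (limma). FAM72, SRGAP2 and NBPF genes have near-identical copies on both sides of the centromere, between which reads cannot be assigned with certainty. Of these copies, FAM72D on the long arm had a log2 difference of -1.16 (adjusted p = 5.39e-07). On the long arm as a whole 107 of 569 genes measured were lower in KO 2 and 131 higher, with a median of 0.02. Of all genes, 20.1% were called lower and 18.1% higher.

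In windows of 10 Mb along chromosome 1, the median log2 difference of KO 2 against KO 1 was 0.09 at 90 to 100 Mb (32 genes), -0.36 at 100 to 110 Mb (41 genes) and -0.44 at 110 to 120 Mb (53 genes), and -0.13 in the first window of the long arm with enough genes, at 140 to 150 Mb. The window at 110 to 120 Mb holds all 18 members measured. Without them, the other 35 genes there had a median of -0.36, with 22 called lower and none higher (20.1% and 18.1% of all genes). Of the other 233 windows of the genome with at least 20 genes measured, 2 had a lower median. They were the windows at 100 to 110 Mb of chromosome 1 and at 140 to 150 Mb of chromosome 8 (-0.38). CRISPR Control against WT gave 0.00 at 90 to 100 Mb, -0.50 at 100 to 110 Mb, -0.40 at 110 to 120 Mb and -0.48 at 140 to 150 Mb, so its lower level also appeared across the centromere. Without the members, the median at 110 to 120 Mb was -0.51 in this comparison, and 2 windows lay lower, on chromosome 14 at 20 to 30 Mb (-0.63) and on chromosome 21 at 40 to 50 Mb (-0.51). KO 1 against WT gave 0.01 and 0.09 in the windows at 100 to 110 and 110 to 120 Mb.

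**Figure D3:**
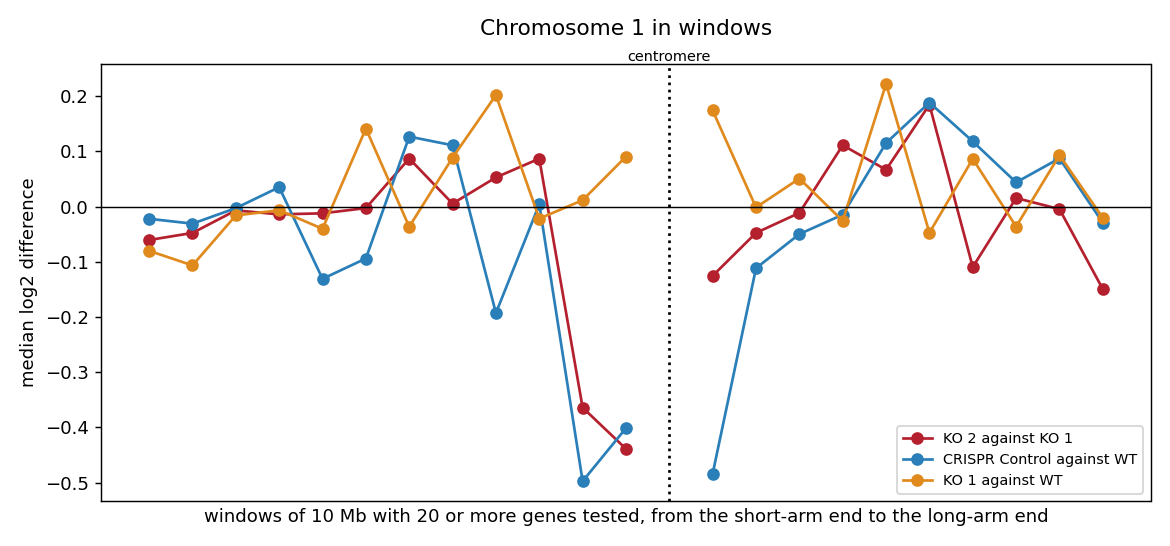
Median log2 difference of protein-coding genes in windows of 10 Mb with at least 20 genes measured, in order along chromosome 1, for 3 comparisons. KO 2 against KO 1 and CRISPR Control against WT drop to between -0.36 and -0.50 in the last 2 windows before the centromere, where KO 1 against WT stays between 0.01 and 0.09.

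The partners of 4 members elsewhere in the genome were compared between the knockout lines with lists written when the level of these members was known. For NRAS, 3 of 17 genes of the RAS family and its kinase cascade were lower in KO 2 and 2 higher, a smaller share than the 20.1% lower and 18.1% higher (38.2% together) of all genes in this comparison, with a median of -0.04 against -0.01 for all genes. The GTPases MRAS (-0.64, adjusted p = 1.7e-06) and HRAS (-0.37, adjusted p = 0.0128) were among those lower, and RRAS2 (0.34, adjusted p = 0.00169) and the kinase MAP2K1 (0.34, adjusted p = 0.000481) were higher by limma. Among 10 genes that report output of the MAPK cascade, 5 were higher in KO 2 and 1 lower, beside 18.1% and 20.1% of all genes, with a median of 0.43. The ERK feedback inhibitors SPRY2 (1.29, adjusted p = 1.59e-09), SPRY4 (0.95, adjusted p = 1.54e-08) and DUSP6 (0.62, adjusted p = 3.49e-05) were higher in KO 2 than in KO 1 by limma. So was the receptor EPHA4 (3.19, adjusted p = 1.92e-05, from a mean of 2.58 normalised counts in KO 1), and EPHA2 was lower (-0.23, adjusted p = 0.0336) in the same limma fit. Against WT, EPHA4 was lower in both knockout lines, by a log2 difference of -6.56 in KO 1 and -3.37 in KO 2. Of the 10 genes, 5 were called lower and 1 higher in KO 1 than in WT (17.5% and 18% of all genes). In KO 2 against WT, 3 were called lower and 5 higher (27.9% and 27.1% of all genes). CRISPR Control against WT had none lower and 7 higher (26.3% and 27.2% of all genes), with a median of 0.65. Against CRISPR Control, KO 1 had 8 lower and none higher (31.3% and 31.7% of all genes). KO 2 had 7 lower and 2 higher against it (34.4% and 33.3%). A link of these genes to the level of NRAS was not tested.

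For NOTCH2, 5 of 23 genes of the Notch pathway were lower in KO 2 than in KO 1 and 2 higher, beside 20.1% and 18.1% of all genes, so that the share called was not above that of all genes, and the median was -0.12. The receptor NOTCH3 (-0.85, adjusted p = 7.94e-05), the coactivator MAML3 (-0.64, adjusted p = 0.00011), the glycosyltransferase LFNG (-0.40, adjusted p = 0.0101) and the ligand DLL3 (-0.35, adjusted p = 0.0131) were lower, and the ligand DLL4 (1.19, adjusted p = 5.16e-06) and the DNA-binding factor RBPJ (0.33, adjusted p = 0.00451) were higher by limma. Of 8 Notch target genes measured out of 10, HES1 (-0.34, adjusted p = 0.00462) and NRARP (-0.96, adjusted p = 6.36e-07) were lower and DTX1 (1.12, adjusted p = 0.0189) and DTX4 (1.34, adjusted p = 0.00804) higher, and both that were higher had means of no more than 58.8 normalised counts in any line.

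For VANGL1, 5 of 10 planar polarity genes measured were lower in KO 2 and none was called higher, beside 20.1% and 18.1% of all genes, with a median of -0.31. They were the atypical cadherins CELSR1 (-0.43, adjusted p = 0.00402) and CELSR2 (-1.23, adjusted p = 2.83e-06), the Wnt receptor FZD6 (-0.46, adjusted p = 8.39e-05), the adaptor DVL2 (-0.39, adjusted p = 0.000618) and the scaffold SCRIB (-0.63, adjusted p = 6.66e-05). Over all 10, log2 differences ran from -1.23 to 1.53, with 2 above 0, neither of them called. FZD6 and SCRIB lie on chromosome 8, on which 37.9% of 449 genes measured were called lower in KO 2, with a median of -0.14. DVL2 lies on chromosome 17, on which 32.1% of 812 genes measured were called lower, with a median of -0.13. CELSR2 itself lies on the short arm of chromosome 1 within 10 Mb of the block (chr1:109249539-109275751), and like VANGL1 it was also lower in CRISPR Control than in WT (-1.19, adjusted p = 2.17e-06 by limma). For BCAS2, 2 of 9 partners in the PRP19 splicing complex were lower (20.1% of all genes), PRPF19 (-0.33, adjusted p = 0.00153) and CDC5L (-0.35, adjusted p = 0.00104), none was called higher, and the median was 0.00.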

How the data were processed

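RNA of 12 libraries was compared, with 3 per line. Per the labels and the methods, the authors trimmed reads with Cutadapt, aligned them to GRCh38 with STAR, counted them with featureCounts and divided counts by DESeq2 size factors; strand setting and annotation release were not given in the sources used here. The deposited values are this normalised count signal. Whole reads were recovered for 100% of values within 0.01 of a read. The table held 4 further columns, which are line means and were not used. Genes with a mean of at least 10 were tested with limma 3.58.1 (R 4.3.3) on log2(value + 1), all 12 libraries in one fit with 4 line means, the trend in variance and Benjamini-Hochberg adjustment over 15987 genes at 0.05. Fold differences are on this log2 scale and understate those of low genes. edgeR 4.0.16 and DESeq2 1.42.0 on the recovered reads were alternatives, and edgeR called 6240 genes between the knockout lines against 6100 by limma. Labels name the libraries biological replicates, but nothing shows separate clones, so p-values measure the spread between libraries of a line. The fit was tested on simulated data. Gene positions and transcript lengths came from GENCODE on GRCh38, which held 99.1% of identifiers, and promoters from RefSeq.

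Named genes were all members, the genes of the interval, 5 genes next to each end, and up to 4 called genes per direction in each partner list; DVL2 was added after its values were seen. Some genes that this rule names are not reported here. The lists of members and partners were chosen with earlier results of these data known. Limits of a count of 0 (3 reads) cover counting error only.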

Additional observations from a re-analysis of the deposited data

How the results depend on the processing

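The 12 members called lower in KO 2 than in KO 1 other than SIKE1 were called so in each of 21 settings (the one reported and 20 alternatives), and SIKE1 in 18. NOTCH2, GDAP2 and BCAS2 were called in none and kept a negative sign, and DENND2C and PTGFRN changed sign in 1 setting each. The call of CD58 as higher in KO 2 than in WT was made in 10 of 21 settings and lost, among others, with quantile normalization (0.07), with the replicate block (0.29, adjusted p = 0.0573 by limma) and without any 1 WT or KO 1 library. Of 260 alternative values, 245 stayed within 1.5 times for a count or 1 SD of the library medians (0.05) for a median. Without a filter, which admits 10 members near 0, the members' median log2 difference was -0.24 between the knockout lines, 0.013 for KO 1 and -0.29 for KO 2, each of these against WT. With equal library totals it was -0.41 for KO 2 against KO 1, -0.31 for KO 2 against WT and 0.013 for both knockout lines against both controls, and under quantile normalization the last was -0.13. Equal totals moved the median of all genes between the knockout lines by 0.10 and the share of calls that were higher from 47.4% to 65.5%, and members then had 12 lower and none higher. Relative to all genes their median was -0.50 under both scalings. A minimum mean of 50 drops DENND2C and PTGFRN, which stood above 0 in CRISPR Control against WT (1.13 and 0.33). The members' median in that comparison was then -0.33, and 2 Notch target genes were called between the knockout lines. Leaving out 1 library gave medians of -0.33 to -0.16 for CRISPR Control against WT and 0.028 to 0.14 for KO 1 against WT, where 3 to 6 members were called. Causes of these moves, other than the low genes admitted or dropped, were not tested.

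Libraries with the same replicate number did not deviate together (r of -0.13 to 0.16 across genes over 18 pairs, against -0.19 to 0.13 for different numbers). With the replicate number as a block, 13 members were called between the knockout lines and the median was -0.52, with 5975 genes called in all. Depth limits the 15 members under the minimum, for which no difference could be read.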
